A study of Mus musculus with 35 samples.

Results

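The 36 genes described here encode the enzymes of glycolysis and of the pentose phosphate pathway, the transporters that bring glucose in and lactate out, and the kinases that hold back pyruvate dehydrogenase. They were listed by name, and all 36 were found among the 19138 genes of the count tables. The RNA came from LT-HSCs, sorted blood stem cells with long-term repopulating capacity, in 35 mouse libraries of 6 genotypes. Every mouse carried SclCre, a Cre recombinase driven by regulatory sequence of the stem cell factor Scl. The mice with SclCre JAK2V617F (JAK2-VF below) carried in addition the activating JAK2 kinase mutation found in myeloproliferative neoplasms, and each genotype was combined with Ezh2 -/- (Ezh2-null), Ezh2 +/- (Ezh2-het) or Ezh2 +/+. Ezh2 is the histone H3 methyltransferase of the Polycomb repressive complex.

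The groups held 6 JAK2-VF Ezh2-null, 4 Ezh2-null, 8 JAK2-VF Ezh2-het, 7 Ezh2-het, 6 JAK2-VF and 4 control libraries, where control means SclCre with Ezh2 +/+. Each library came from 1000 sorted cells. Libraries held 13.6 to 48.6 M counts in all, with 13584 to 15162 genes detected. The labels gave 14 libraries to batch 1 and 21 to batch 2, and 20 to females and 15 to males, and the 4 controls were all female. Females and males numbered 5 and 1 in JAK2-VF Ezh2-null, 1 and 3 in Ezh2-null, and 5 and 3 in JAK2-VF Ezh2-het libraries. They numbered 3 and 4 in Ezh2-het and 2 and 4 in JAK2-VF libraries. Batch 1 held 1 Ezh2-null library, so averages within batch 1 rest in part on it. Within batch 2 the 4 JAK2-VF libraries were male and the 2 controls female, so adjustment for sex there rests on other groups. Animals are not identified in the labels, so the p-values reflect how far libraries of a group spread, and that spread may be technical. The targeted genes were checked first. Jak2 was higher with JAK2-VF by 0.53 ± 0.09 on the log2 scale, averaged over the Ezh2 genotypes (SE, edgeR adjusted p = 2.84e-05), while the single comparison of JAK2-VF with control libraries did not pass (0.39 ± 0.17 SE, edgeR adjusted p = 0.222). In that comparison Jak2 averaged 88.4 CPM with JAK2-VF and 56.9 CPM in controls within batch 1 (n = 2 each), and 56.8 CPM with JAK2-VF (n = 4) and 52.9 CPM in controls (n = 2) within batch 2. Ezh2 also rose with JAK2-VF on average (log2 change 0.46 ± 0.12 SE, edgeR adjusted p = 0.00451). Ezh2 was lower in JAK2-VF Ezh2-null than in JAK2-VF libraries (log2 change -1.50 ± 0.21 SE, edgeR adjusted p = 0.000102). In Ezh2-null against control libraries its log2 change was -0.95 ± 0.26 and did not pass (SE, edgeR adjusted p = 0.483). The separately counted part of Ezh2 was at 0% of the gene's counts in every JAK2-VF Ezh2-null library and at most 0.478% in Ezh2-null libraries, against 6.02 to 8.72% in controls. It was at 6.34 to 9.27% in JAK2-VF libraries. The Ezh2-het groups overlapped these values, at 0 to 9.497% in Ezh2-het and 4.077 to 8.495% in JAK2-VF Ezh2-het libraries. The share therefore could not tell Ezh2-het from Ezh2 +/+ libraries. A pair of libraries went against their labels, both in the Ezh2-het group of batch 1. Replicate 1 was labelled male and had 391 CPM of Xist, the RNA of the inactive X chromosome. The other libraries labelled male had 0.448 to 14.4 CPM and those labelled female 590 to 1351 CPM. Replicate 3 had no counts in that part of Ezh2, as in the null libraries. All 14 genes listed as markers of LT-HSCs had counts in every group. The list mixes genes expressed in LT-HSCs with Cd34, Flt3 and Cd48, whose products are low or absent on mouse LT-HSCs. Counts and sums of the list therefore do not establish identity. The summed level of the 14 was 2827 to 4683 CPM in the 20 libraries with JAK2-VF and 4096 to 6141 CPM in the 15 without.

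Glycolysis splits glucose into pyruvate through hexokinase, phosphofructokinase, aldolase, the dehydrogenase Gapdh and the kinases that regain ATP. Pyruvate is then reduced to lactate or enters mitochondria through pyruvate dehydrogenase, which Pdk enzymes switch off by phosphorylation. The pentose phosphate pathway leaves glycolysis at glucose phosphate. Its oxidative branch makes NADPH and its reversible branch, run by transketolase and transaldolase, makes ribose phosphate for nucleotides. LT-HSCs are known for a low mitochondrial activity and a reliance on glycolysis that has been tied to HIF-1, the factor stabilised by low oxygen.

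Promoter sequences are shown for Tkt and Pdk3, which rose with JAK2-VF, and Hk2, which fell. Each is the 250 bases before the RefSeq start, 5′ to 3′ on the gene's strand, in build GRCm38.p6. Capitals mark the letters ACGTG and GCGTG on either strand, both forms of the core RCGTG that HIF-1 binds, where R is A or G. Tkt lies on the plus strand at chr14:30548881-30549130, Pdk3 on the minus strand at chrX:93832151-93832400 and Hk2 on the minus strand at chr6:82774455-82774704.
Tkt: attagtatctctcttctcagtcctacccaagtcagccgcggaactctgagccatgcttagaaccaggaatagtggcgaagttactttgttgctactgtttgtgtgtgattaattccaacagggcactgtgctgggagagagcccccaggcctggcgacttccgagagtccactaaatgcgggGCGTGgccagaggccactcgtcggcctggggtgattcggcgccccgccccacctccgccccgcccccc
Pdk3: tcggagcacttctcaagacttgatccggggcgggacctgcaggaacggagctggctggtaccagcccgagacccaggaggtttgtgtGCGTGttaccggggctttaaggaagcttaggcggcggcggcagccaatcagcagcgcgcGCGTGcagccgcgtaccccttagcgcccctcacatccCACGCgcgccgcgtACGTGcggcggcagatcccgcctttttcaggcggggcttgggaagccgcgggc
Hk2: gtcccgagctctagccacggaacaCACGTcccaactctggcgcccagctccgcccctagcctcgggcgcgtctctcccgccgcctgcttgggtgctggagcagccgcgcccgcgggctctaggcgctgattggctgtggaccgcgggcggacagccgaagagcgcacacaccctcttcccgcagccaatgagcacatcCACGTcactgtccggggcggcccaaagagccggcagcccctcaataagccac
The Tkt window held 1 GCGTG, the Pdk3 window 1 ACGTG and 3 GCGTG, and the Hk2 window 2 ACGTG. RefSeq promoters were found for 35 of the 36 genes, all but Slc2a3. Counting both strands and all starts of a gene, ACGTG stood in 15 of the 35 genes (42.9%) and in 18.5% of 27025 genes. GCGTG stood in 24 of the 35 (68.6%), against 30.9% of all genes. The E-box CACGTG, which contains ACGTG, stood in 6 of the 35 (17.1%), against 6.86% of all genes. TTCNNNGAA, the core of STAT sites, where N is any base, stood in 2 of the 35 (5.71%), against 8.13% of all genes. These are letter matches and say nothing of binding. Genes with more starts had more chances to match: Pfkm and Pfkfb1 had 4 starts each, and all 27025 genes had 32851. The 35 genes and all genes were not matched for starts or base composition, so the shares are no test of enrichment.

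Levels were compared per kilobase of the deposited gene length, as CPM (counts scaled to the TMM-normalised library size) per kilobase. Aldoa, the aldolase of most tissues, led the list with a median of 589.5 CPM per kilobase over the 35 libraries. The lactate dehydrogenase gene Ldha followed with 373, the pyruvate kinase gene Pkm with 292, transketolase (Tkt) with 268 and transaldolase (Taldo1) with 209 CPM per kilobase. The reversible branch of the pentose phosphate pathway thus stood among the 5 highest of the 36 genes, well above its oxidative branch, where Pgd had 59.4 and G6pdx 32.2 CPM per kilobase. At the other end Pdk4 had 0.878 CPM per kilobase, and Pklr, the pyruvate kinase gene of liver and red cells, had a median of 0.

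**Figure D1:**
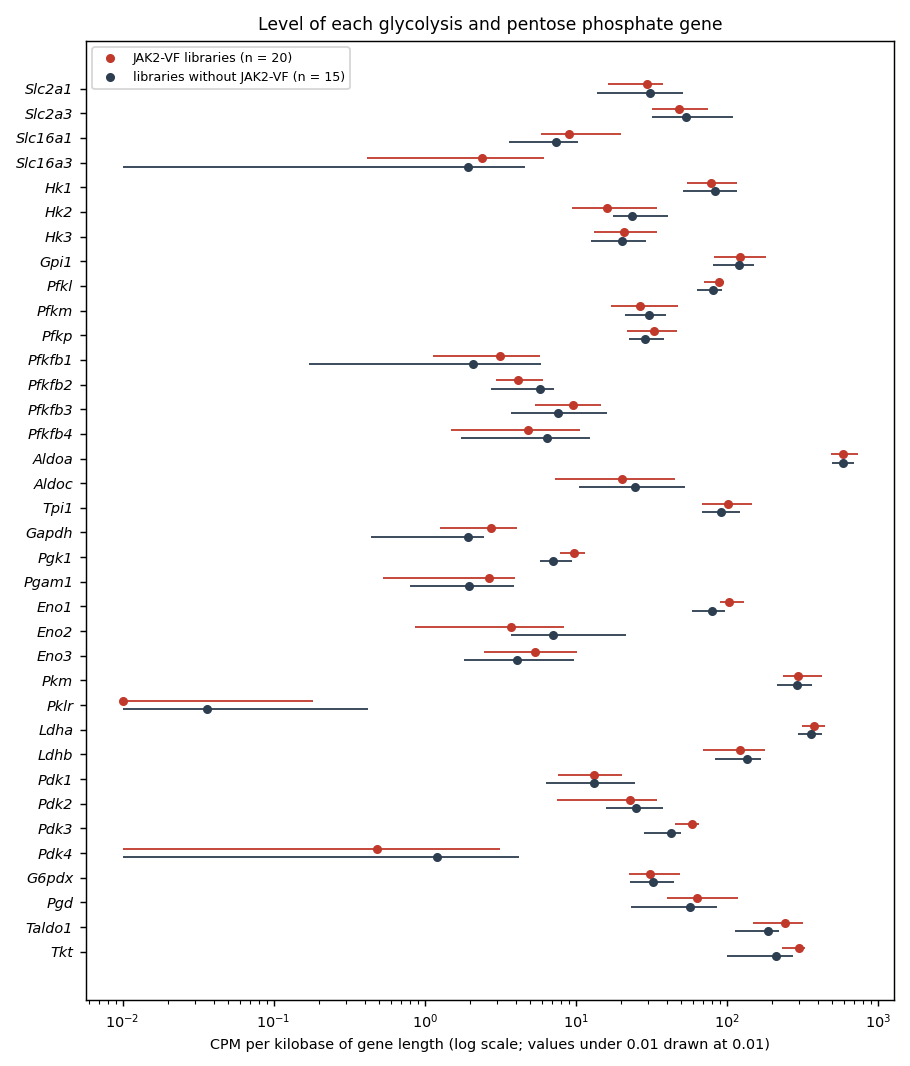
Level of each gene in CPM per kilobase on a log axis, as the median (point) and range (line) of the 20 JAK2-VF libraries and of the 15 libraries without JAK2-VF. The ranges of both sets overlap for every gene, Aldoa, Ldha, Pkm and Tkt are highest, and Pklr has a median of 0 in the JAK2-VF libraries.

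Within each enzyme family 1 gene usually dominated, by share of the family's summed CPM per kilobase. Hk1, the housekeeping hexokinase, averaged 69.7 ± 6.9% of the hexokinase total in JAK2-VF Ezh2-null libraries (SD, n = 6), with 69.1 ± 4.6% for the JAK2-VF group (SD, n = 6) and 62.8 ± 5.2% in controls (SD, n = 4). Aldoa held 97.1 ± 1.1% of aldolase in JAK2-VF Ezh2-null libraries (SD, n = 6) and 95.8 ± 0.81% in Ezh2-null libraries (SD, n = 4). Ldha held 76.3 ± 5.7% of lactate dehydrogenase in JAK2-VF Ezh2-null libraries (SD, n = 6) and 70.0 ± 1.1% in Ezh2-null libraries (SD, n = 4). The Ldha share was 77.2 ± 3.6% in JAK2-VF Ezh2-het (SD, n = 8) and 71.5 ± 2.2% in Ezh2-het libraries (SD, n = 7), and 76.7 ± 6.6% for the JAK2-VF group (SD, n = 6) and 76.2 ± 3.3% in controls (SD, n = 4). Among the phosphofructokinases Pfkl, the liver type, was the main one with group means of 55.4% in Ezh2-het to 58.2% in control libraries. Pdk3 was the main pyruvate dehydrogenase kinase gene, followed by Pdk2 and Pdk1, and Pdk4 held group means of 0.563 to 2.55%.

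The level of some genes in this pathway is uncertain because the mouse genome holds many processed copies of them. Of the 50-base windows of Gapdh mRNA, 82.5% also occur in another annotated gene, and 213 of the 218 genes concerned are pseudogenes. The shares were 72.2% for Eno1, 68.0% for Pgk1, 41.5% for Pgam1, 34.4% for Pkm and 27% for Ldhb, and no window was shared for 19 of the 36 genes, among them Tkt, Pdk3, Hk2 and Pgd. Gapdh, usually among the most abundant mRNAs of a cell, had a median of 2.18 CPM per kilobase, rank 34 of 36, while its neighbours in the pathway Aldoa and Tpi1 had 589.5 and 96.6 CPM per kilobase. How reads with several matches were counted is not given in the sources used here, and the part of these copies in the low values was not tested.

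**Figure D2:**
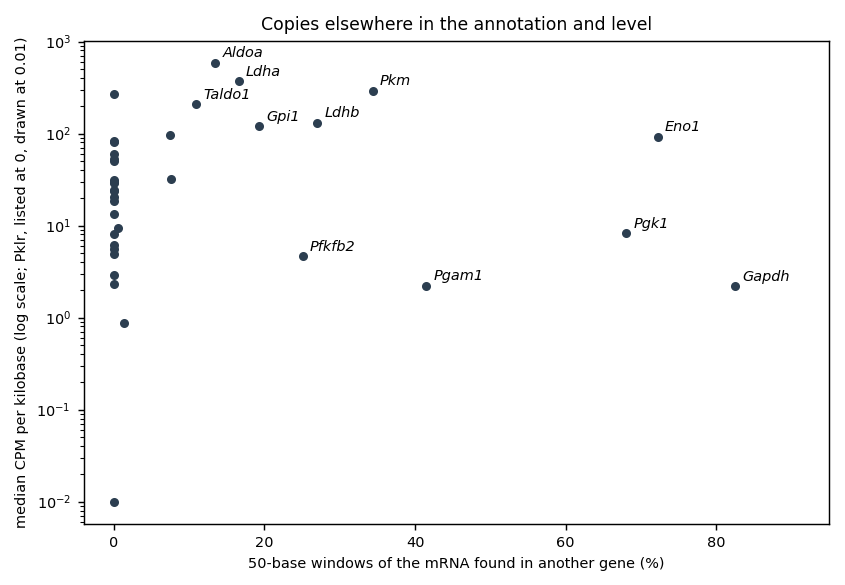
Median level over 35 libraries (CPM per kilobase, log axis) against the percentage of 50-base windows of each mRNA that also occur in another annotated gene. Gapdh, Pgk1 and Pgam1 combine many shared windows with low levels, while Eno1 and Pkm have shared windows and high levels.

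The comparison of main interest set the libraries with JAK2-VF against those without it, at each Ezh2 genotype and averaged over all 3. These 3 comparisons share no library. Averaged, 9 of the 36 genes rose and 4 fell with JAK2-VF, which is 36.1% of them, where 25.4% of all 14945 tested genes were called, 12.9% higher and 12.5% lower (edgeR quasi-likelihood test, Benjamini-Hochberg adjusted p under 0.05). The median log2 change was 0.09 over the 36 genes and -0.01 over all tested genes. All of the 36 passed the low-count filter. The 9 that rose were Tkt, Taldo1 and Pgd of the pentose phosphate pathway, Gapdh, Pgk1, Eno1 and Pkm of lower glycolysis, the lactate transporter Slc16a1 and the kinase Pdk3. The 4 that fell were Hk2, Pfkfb2, Eno2 and Ldhb. The changes were modest, with averages among the called genes from -0.87 for Eno2 to 0.66 for Gapdh on the log2 scale.

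Sign was the same at all 3 Ezh2 genotypes for 22 of the 36 genes, 15 of them higher and 7 lower with JAK2-VF, which is 61.1%, against 50.7% of all tested genes. All 13 called genes also kept their sign in batch 1 alone, in batch 2 alone, in females alone and without the pair of libraries that went against their labels. These fits reuse libraries that gave the calls, so a kept sign was likely beforehand and is no independent check. The summed level of the 36 genes was 6593 ± 802 CPM in JAK2-VF Ezh2-null libraries (SD, n = 6) and 6274 ± 825 CPM in Ezh2-null libraries (SD, n = 4). It was 6805 ± 764 CPM in JAK2-VF Ezh2-het libraries (SD, n = 8) and 6290 ± 823 CPM in Ezh2-het libraries (SD, n = 7). The JAK2-VF group had 7210 ± 632 CPM (SD, n = 6) and the controls 6175 ± 630 CPM (SD, n = 4). As a mean per group, the 36 genes together took up 0.617 to 0.721% of counts.

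**Figure D3:**
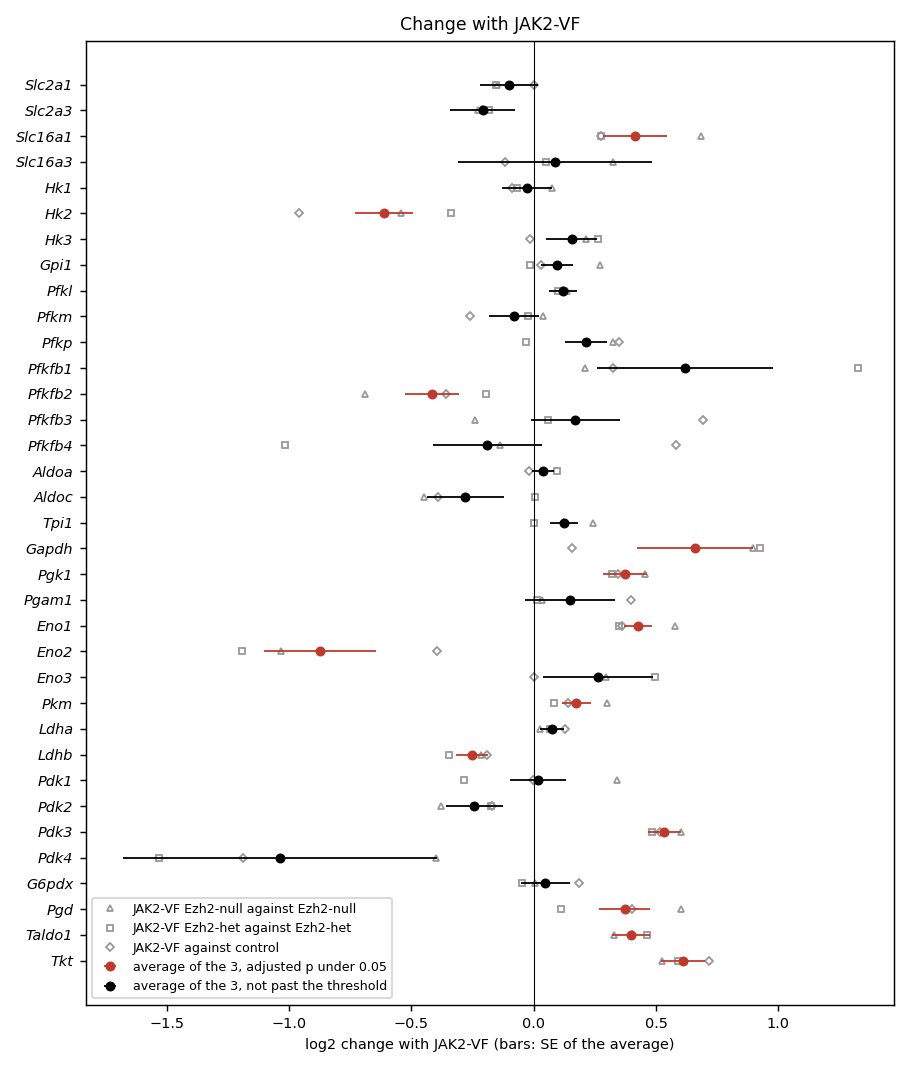
Log2 change with JAK2-VF for 35 of the genes (Pklr, nearly without counts, is left out). Filled points are the average over the 3 Ezh2 genotypes with its SE, red where the adjusted p is under 0.05, and open grey symbols are the 3 single comparisons. Tkt, Pdk3 and Eno1 lie to the right of 0 in all 3 comparisons, and Hk2, Eno2 and Ldhb to the left.

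Transketolase (Tkt), which moves carbon units between sugar phosphates and links ribose phosphate back to glycolysis, showed the clearest rise of the pentose phosphate genes. In JAK2-VF Ezh2-null libraries Tkt had 861, 919.9 and 1053 CPM as lowest, median and highest value, against 538, 676, 719 and 778 CPM in the 4 Ezh2-null libraries. It had 747, 968 and 1021 CPM in JAK2-VF Ezh2-het libraries, against 322, 663 and 885 CPM in Ezh2-het libraries. In JAK2-VF libraries it had 777, 1003 and 1042 CPM, against 452, 486, 707 and 739 CPM in the 4 controls. Every one of the 20 JAK2-VF libraries lay above 676 CPM, the median of the 15 libraries without JAK2-VF, and 15 lay above all of those. For such pooled counts, here and for the genes below, the share over all tested genes was not computed. JAK2-VF and control libraries did not overlap, nor did JAK2-VF Ezh2-null and Ezh2-null libraries, as held for 6.27% and 6.84% of all tested genes, while the Ezh2-het pair overlapped. The averaged Tkt log2 change was 0.61 ± 0.09 (SE, edgeR adjusted p = 4.49e-06). It was 0.71 ± 0.18 in JAK2-VF against control libraries (SE, edgeR adjusted p = 0.0159), 0.59 ± 0.13 in the Ezh2-het pair (SE, edgeR adjusted p = 0.00373) and 0.52 ± 0.18 in the Ezh2-null pair (SE, edgeR adjusted p = 0.0786). The Tkt change differed in size between batches, where the batch 1 average includes the comparison with 1 Ezh2-null library. The averaged log2 change was 1.09 ± 0.18 within batch 1 and 0.32 ± 0.07 within batch 2 (SE), and for JAK2-VF against control 1.14 ± 0.24 within batch 1 and 0.22 ± 0.15 within batch 2 (SE). Both averaged values passed the threshold within their batch (edgeR adjusted p = 0.00498 and 0.00451), and the difference between the batches was not tested.

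Transaldolase (Taldo1), the partner of transketolase in the reversible branch, had 191, 256 and 314 CPM as lowest, median and highest value in JAK2-VF Ezh2-null libraries, against 185, 198, 231 and 248 CPM in Ezh2-null libraries. Taldo1 had 256, 316 and 384 CPM in JAK2-VF Ezh2-het libraries, against 145, 241 and 284 CPM in Ezh2-het libraries. It had 279, 328 and 408 CPM in JAK2-VF libraries, against 233, 243, 246 and 248 CPM in controls. The 6 JAK2-VF libraries all lay above the 4 controls, in a pair where 6.27% of all tested genes did not overlap. The test of that pair did not pass (log2 0.40 ± 0.15 SE, edgeR adjusted p = 0.138). The averaged Taldo1 change was 0.40 ± 0.08 (SE, edgeR adjusted p = 0.000211) and the change in the Ezh2-het pair 0.46 ± 0.12 (SE, edgeR adjusted p = 0.00851).

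The oxidative branch was divided. Pgd, the dehydrogenase that releases ribulose phosphate with NADPH, had 89.7 to 263 CPM over the 20 JAK2-VF libraries (median 142) and 51.6 to 192 CPM over the 15 libraries without JAK2-VF (median 128). Its averaged log2 change was 0.37 ± 0.11 (SE, edgeR adjusted p = 0.00853), and none of the single comparisons passed. The Pgd change was 0.77 ± 0.23 within batch 1 and 0.24 ± 0.12 within batch 2 (SE), and neither passed alone. Batches differed in its level too: batch 2 libraries ranged over 118 to 263 CPM, those of batch 1 over 51.6 to 138 CPM. G6pdx, the first and rate-limiting enzyme of the branch, had 59.1 to 128 CPM with JAK2-VF (median 81.7) and 60.1 to 118 CPM without (median 85.3). Its averaged log2 change was 0.05 ± 0.10 (SE, edgeR adjusted p = 0.774), so no change of G6pdx was detected beyond the spread between libraries.

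**Figure D4:**
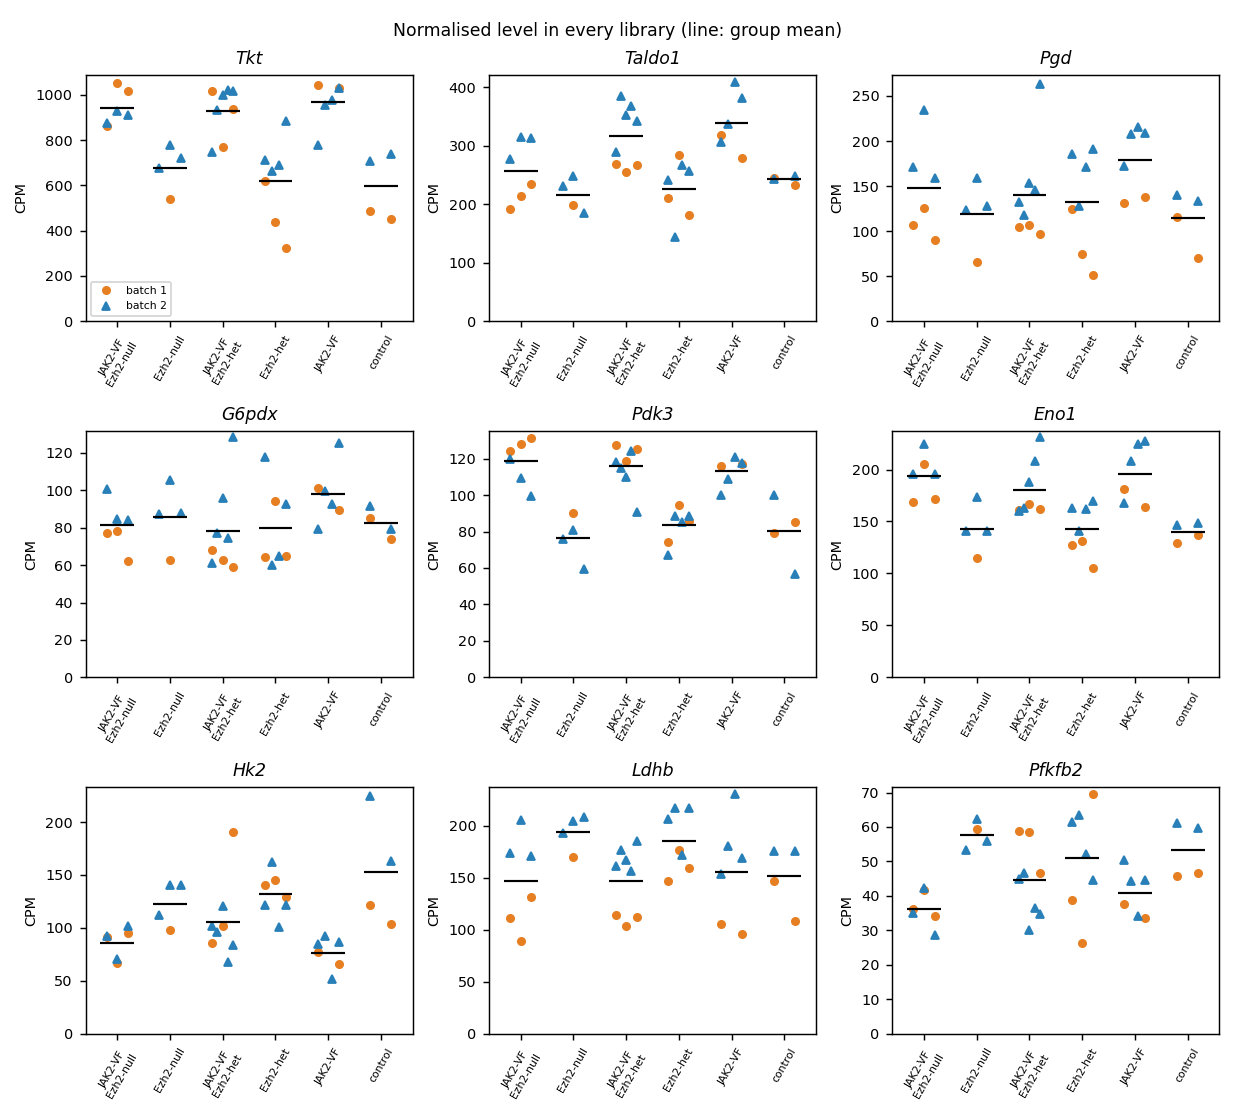
Level in every library (CPM, axes from 0) for 9 genes, with tested genotypes left of the genotype without JAK2-VF, circles for batch 1, triangles for batch 2 and a line at the group mean. Tkt, Pdk3 and Eno1 sit higher in each group with JAK2-VF, Hk2 sits lower, G6pdx does not separate, and Pgd and Ldhb have lower medians in batch 1.

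Pdk3, one of the kinases that inactivate pyruvate dehydrogenase, was called in all 3 single comparisons, which held for no other gene of the list. For calls in all 3 comparisons, and for calls within each batch below, the share over all tested genes is not given here. In JAK2-VF Ezh2-null libraries Pdk3 had 99.5, 122 and 132 CPM as lowest, median and highest value, against 59.5, 76.1, 81.1 and 90.3 CPM in Ezh2-null libraries. In JAK2-VF Ezh2-het libraries it had 90.4, 118 and 128 CPM, against 67.0, 86.0 and 94.6 CPM in Ezh2-het libraries. In JAK2-VF libraries it had 100.2, 117 and 121 CPM, against 56.9, 79.5, 85.4 and 99.96 CPM in controls. All 20 JAK2-VF libraries lay above the median of the libraries without it, and 18 lay above all 15 of those. The log2 change was 0.60 ± 0.13 in the Ezh2-null pair (SE, edgeR adjusted p = 0.00548), 0.48 ± 0.10 in the Ezh2-het pair (SE, edgeR adjusted p = 0.00194) and 0.51 ± 0.13 in JAK2-VF against control (SE, edgeR adjusted p = 0.0234). Averaged, it was 0.53 ± 0.07 (SE, edgeR adjusted p = 3.93e-07), and it was 0.49 ± 0.13 within batch 1 and 0.52 ± 0.11 within batch 2 (SE). The other kinase genes did not pass, with averaged log2 changes of 0.02 ± 0.12 for Pdk1, -0.24 ± 0.12 for Pdk2 and -1.04 ± 0.64 for the scarce Pdk4 (SE, edgeR adjusted p = 0.941, 0.127 and 0.253). Pdk3 made up 64.6 ± 5.8% of the family's CPM per kilobase in JAK2-VF Ezh2-null libraries (SD, n = 6) and 49.5 ± 9.9% in Ezh2-null libraries (SD, n = 4). The share was 62.1 ± 4.5% in JAK2-VF Ezh2-het libraries (SD, n = 8) and 50.2 ± 5.4% in Ezh2-het libraries (SD, n = 7), and it reached 58.9 ± 6.2% with JAK2-VF alone (SD, n = 6) and 49.2 ± 4.3% in controls (SD, n = 4).

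In JAK2-VF against control libraries, 2 of the 36 genes rose, Tkt and Pdk3, and Hk2 fell, where 4.15% of all tested genes were called, 2.34% higher and 1.81% lower. Leaving out 1 library could end these calls. Hk2 was the one call left in the fits that dropped replicate 1 or 2 of the batch 1 controls, or replicate 1 of the batch 1 JAK2-VF libraries. Without JAK2-VF batch 1 replicate 2, Pdk3 alone was called. Without control batch 2 replicate 2, Hk2 was lost, and without control batch 2 replicate 4, Pdk3 was lost. The fitted log2 changes without 1 library stayed within 0.63 to 0.80 for Tkt, 0.40 to 0.68 for Pdk3 and -1.11 to -0.72 for Hk2, with adjusted p up to 0.0732, 0.106 and 0.103. In the Ezh2-het pair 4 genes rose, Tkt, Pdk3, Taldo1 and Eno1, and 2 fell, Eno2 and Ldhb, where 9% of all tested genes were called, 4.82% higher and 4.18% lower. Of the 36 genes, 0 had levels that did not overlap in this pair, against 1.43% of all tested genes. Without the pair of libraries that went against their labels, Eno1, Eno2 and Ldhb were lost and 3 calls were left. In the Ezh2-null pair 2 genes rose, Pdk3 and Eno1, where 4.81% of all tested genes were called, 2.84% higher and 1.97% lower.

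Among hexokinases Hk2, the inducible form that binds mitochondria, moved against Tkt. It had 67.0, 91.6 and 101 CPM as lowest, median and highest value in JAK2-VF Ezh2-null libraries, against 97.8, 112, 140.0 and 141 CPM in Ezh2-null libraries. In JAK2-VF Ezh2-het libraries it had 67.4, 98.7 and 191 CPM, against 100.3, 129 and 163 CPM in Ezh2-het libraries. In JAK2-VF libraries it had 52.0, 80.9 and 92.6 CPM, against 104, 121, 164 and 225 CPM in controls. JAK2-VF and control libraries did not overlap, as held for 6.27% of all tested genes, and 15 of all 20 JAK2-VF libraries lay below every library without the mutation. The log2 change was -0.96 ± 0.24 in JAK2-VF against control (SE, edgeR adjusted p = 0.0161), and the average was -0.61 ± 0.12 (SE, edgeR adjusted p = 0.00019). The averaged change was -0.40 ± 0.23 within batch 1 and -0.76 ± 0.13 within batch 2 (SE), and the first did not pass (edgeR adjusted p = 0.406). Hk2 made up 11.2 ± 2.8% of hexokinase in JAK2-VF libraries (SD, n = 6) and 20.8 ± 5.0% in controls (SD, n = 4). The abundant Hk1 and the myeloid Hk3 did not pass, with averaged log2 changes of -0.03 ± 0.10 and 0.16 ± 0.10 (SE, edgeR adjusted p = 0.887 and 0.300).

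The middle steps changed little. Gpi1, which isomerises glucose phosphate, and the phosphofructokinase genes Pfkl, Pfkm and Pfkp had averaged log2 changes of 0.10 ± 0.07, 0.12 ± 0.06, -0.08 ± 0.10 and 0.21 ± 0.08 (SE), none past the threshold. The Pfkfb enzymes make and remove the sugar bisphosphate that activates phosphofructokinase, and 1 of the 4, Pfkfb2, fell. Pfkfb2 had 28.6 to 58.8 CPM with JAK2-VF (median 39.6) and 26.3 to 69.5 CPM without (median 55.8), and its averaged log2 change was -0.41 ± 0.11 (SE, edgeR adjusted p = 0.00548). The other PFKFB genes did not pass, with averaged log2 changes of 0.62 ± 0.36 for Pfkfb1, 0.17 ± 0.18 for Pfkfb3 and -0.19 ± 0.22 for Pfkfb4 (SE). For Pfkfb2, of the 20 JAK2-VF libraries 18 lay below the median of the others, and 25.1% of its mRNA windows are shared with another gene model. Aldoa and the triosephosphate isomerase gene Tpi1 had averaged log2 changes of 0.04 ± 0.05 and 0.12 ± 0.06 (SE) and did not pass, nor did the minor aldolase gene Aldoc (-0.28 ± 0.16).

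Lower glycolysis held 4 of the 9 genes that rose. Eno1, the main enolase gene, had 169, 196 and 225 CPM as lowest, median and highest value in JAK2-VF Ezh2-null libraries, against 115, 141, 141 and 173 CPM in Ezh2-null libraries. It had 159.8, 165 and 231 CPM in JAK2-VF Ezh2-het libraries, against 105, 141 and 169.6 CPM in Ezh2-het libraries. In JAK2-VF libraries it had 164, 195 and 227 CPM, against 129, 137, 147 and 148 CPM in controls. All 20 JAK2-VF libraries lay above the median of the libraries without JAK2-VF, and 11 lay above all of those. Of the Eno1 mRNA windows 72.2% also occur in another gene, so its counts are uncertain. The Eno1 log2 change was 0.58 ± 0.11 in the Ezh2-null pair (SE, edgeR adjusted p = 0.00135), 0.35 ± 0.08 in the Ezh2-het pair (SE, edgeR adjusted p = 0.00614) and 0.43 ± 0.06 on average (SE, edgeR adjusted p = 7.04e-07). Between JAK2-VF and control libraries, which did not overlap (as for 6.27% of all tested genes), it was 0.36 ± 0.11 and just missed the threshold (SE, edgeR adjusted p = 0.0595). Eno1 was 1 of the 2 genes, with Tkt, that were called on average within each batch.

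Eno2, the enolase of neurons and a target of HIF-1, went the other way at a far lower level. It had 2.27 to 22 CPM with JAK2-VF (median 9.85) and 9.81 to 56.4 CPM without (median 18.5). The averaged Eno2 log2 change was -0.87 ± 0.23 (SE, edgeR adjusted p = 0.0044), and it was -1.19 ± 0.35 in the Ezh2-het pair (SE, edgeR adjusted p = 0.0246). In that pair the call was lost without JAK2-VF Ezh2-het batch 1 replicate 2, Ezh2-het batch 2 replicate 3 or JAK2-VF Ezh2-het batch 2 replicate 4, with adjusted p up to 0.0952. Eno3, the muscle enolase, did not pass (averaged log2 0.26 ± 0.23 SE).

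Pgk1, which makes the first ATP of the pathway, had 14.1 to 20.6 CPM with JAK2-VF (median 17.6) and 10.4 to 16.9 CPM without (median 12.8). Its averaged log2 change was 0.37 ± 0.09 (SE, edgeR adjusted p = 0.00233), and all 20 JAK2-VF libraries lay above the median of the others. Gapdh had 1.56 to 5.05 CPM with JAK2-VF (median 3.39) and 0.540 to 3.02 CPM without (median 2.38), with an averaged log2 change of 0.66 ± 0.24 (SE, edgeR adjusted p = 0.0382). The Gapdh call was lost in 10 of the 35 fits that left out 1 library, with adjusted p up to 0.0922 and log2 changes of 0.56 to 0.75. Those libraries were Ezh2-het batch 1 replicate 3, JAK2-VF Ezh2-het batch 1 replicate 1, JAK2-VF Ezh2-null batch 1 replicate 3, control batch 2 replicates 2 and 4, Ezh2-null batch 2 replicates 1 and 2, JAK2-VF Ezh2-het batch 2 replicate 2, JAK2-VF Ezh2-null batch 2 replicate 2 and JAK2-VF batch 2 replicate 3. Pkm, the pyruvate kinase of dividing and muscle cells, had 616 to 1116 CPM with JAK2-VF (median 767) and 555 to 958 CPM without (median 759). Its averaged change was small, 0.17 ± 0.06 (SE, edgeR adjusted p = 0.0295), and was lost without Ezh2-null batch 1 replicate 1, Ezh2-null batch 2 replicate 1 or JAK2-VF Ezh2-null batch 2 replicate 2, with adjusted p up to 0.0733. Like Eno1, these 3 genes are among those with many copies, so their counts are uncertain. Pgam1, the mutase between them, separated by batch without overlap, batch 2 at 3.53 to 7.22 CPM and batch 1 at 0.969 to 2.56 CPM, which held for 0.442% of all tested genes and for no other gene of the list. Its averaged log2 change with JAK2-VF was 0.15 ± 0.18 (SE) and did not pass. Pklr had at most 0.509 CPM with JAK2-VF and at most 1.17 CPM without, too few counts for its fitted change to be read.

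At the end of the pathway the abundant Ldha did not pass (averaged log2 0.07 ± 0.05 SE, edgeR adjusted p = 0.274), whereas Ldhb, the heart-type subunit that favours lactate use, fell. Ldhb had 89.4 to 230.3 CPM with JAK2-VF (median 159) and 108 to 217 CPM without (median 176). The averaged Ldhb log2 change was -0.25 ± 0.06 (SE, edgeR adjusted p = 0.00341), and it was -0.53 ± 0.16 within batch 1 and -0.14 ± 0.07 within batch 2 (SE), neither past the threshold alone. In the Ezh2-het pair it was -0.35 ± 0.10 (SE, edgeR adjusted p = 0.0183), lost without Ezh2-het batch 1 replicate 3 or JAK2-VF Ezh2-het batch 1 replicate 2 (adjusted p up to 0.0607). The lactate and pyruvate transporter Slc16a1 had 26.1 to 87.8 CPM with JAK2-VF (median 39.6) and 16.1 to 46.1 CPM without (median 32.8), with an averaged log2 change of 0.41 ± 0.13 (SE, edgeR adjusted p = 0.018). The glucose transporters Slc2a1 and Slc2a3 did not pass, with averaged log2 changes of -0.10 ± 0.12 and -0.21 ± 0.13 (SE), nor did the second lactate transporter gene Slc16a3 (0.09 ± 0.40).

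Genes around these pathways, listed with earlier results known, were read against the same 25.4% of genes called on average. Among 9 further pentose phosphate and ribose genes, 4 rose and none fell, with a median log2 change of 0.38. They included Prps1 (0.55) and Prps2 (0.55), which turn ribose phosphate into the precursor of nucleotides, and Pgls (0.26), the lactonase of the oxidative branch. All 6 genes of serine synthesis from the glycolytic phosphoglycerate and of its folate use rose, with 1.79 for the mitochondrial folate enzyme Mthfd2, 0.33 for Phgdh and 0.41 for Psph. Among 10 genes of pyruvate entry to mitochondria 4 rose and none fell, for example the pyruvate dehydrogenase subunit genes Dld (0.29), Pdhb (0.21) and Pdha1 (0.17). Among 10 NADPH producers and glutathione users 4 rose and none fell, with Me2 at 0.61, Idh2 at 0.32 and Idh1 at 0.34. Of 13 further glycolysis genes Pgm2 rose (0.40) and Slc2a8 fell (-0.56). Of 8 glycogen genes 2 rose, Gys1 (0.45) and Pygl (0.23), and the phosphorylase Pygm fell (-0.75). Of 24 regulators and other HIF-1 targets 3 rose and 9 fell, among them Foxo1 (-0.86), Txnip (-0.84), the brake on glucose uptake, and Meis1 (-0.27).

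Markers of proliferation moved with these changes. All 20 of them rose on average, with a median log2 change of 1.85. For these and the markers below, 12.9% of all tested genes were called higher and 12.5% lower. Their summed level was 1218 to 3250 CPM in the 20 libraries with JAK2-VF and 324 to 1091 CPM in libraries without JAK2-VF, with group medians of 1953 CPM in JAK2-VF Ezh2-null and 731 CPM in Ezh2-null libraries, 1881 CPM in JAK2-VF Ezh2-het and 696 CPM in Ezh2-het libraries, and 2226 CPM in JAK2-VF and 753 CPM in control libraries. Of the 14 genes listed for LT-HSCs 7 fell, among them Hlf at -0.78 and Procr at -0.89, and 1 rose. Cd34, a listed gene whose product is low on LT-HSCs, rose in JAK2-VF against control (log2 0.83 ± 0.22 SE, edgeR adjusted p = 0.024). Cd34 also rose in the Ezh2-het pair (0.99 ± 0.16 SE, edgeR adjusted p = 0.000141). Of 15 neutrophil and monocyte markers 1 rose, and their summed level spread widely, from 995 to 18865 CPM in all libraries with JAK2-VF and from 811 to 8121 CPM in libraries without JAK2-VF. Of 14 erythroid markers 7 fell and 1 rose, of 10 megakaryocyte markers 2 rose and 1 fell, and of 9 tested lymphocyte markers 1 rose. Against 25.4% of all tested genes called, the megakaryocyte share was close and the lymphocyte, neutrophil and monocyte shares were lower. Hba-a1 and Hbb-b1, the globin genes, averaged 2.25 and 3.62 CPM with JAK2-VF and 41.8 and 57.7 CPM without, with averaged log2 changes of -6.81 ± 0.82 and -4.17 ± 0.52 (SE, edgeR adjusted p = 1.39e-07 and 2.62e-07). Slc4a1, the red cell anion exchanger gene, averaged 0.287 CPM with JAK2-VF and 4.15 CPM without (log2 -6.20 ± 1.06 SE, edgeR adjusted p = 6.28e-05). No erythroid marker was called in the Ezh2-null pair. Over all 35 libraries Hba-a1 had a median of 0.292 CPM and a highest value of 165 CPM. Hbb-b1 had a median of 2.19 CPM and a highest value of 204 CPM. Summed erythroid levels, nearly all of them Car2 (3624 to 6494 CPM over all libraries), were 3731 to 6633 CPM with JAK2-VF and 4035 to 6439 CPM without, and summed megakaryocyte levels 205 to 1761 CPM with JAK2-VF and 229 to 806 CPM without. Lymphocyte markers summed to 85.5 to 244 CPM with JAK2-VF and 86.9 to 180 CPM without, and the T cell gene Cd3e had no counts in the JAK2-VF Ezh2-het, Ezh2-null, JAK2-VF and control groups. In bulk RNA, fewer cells of a type and less RNA per cell cannot be told apart, and the part of cell type or division in the changes of the metabolic genes was not tested.

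Loss of Ezh2 changed none of the 36 genes past the threshold. In Ezh2-null against control libraries 0 of 36 were called by edgeR, as were 0% of all tested genes, and 3 had an unadjusted p under 0.05, against 6.07% of all tested genes. These 3, named after their values were seen, were Pdk1 (log2 -0.68 ± 0.25), Hk3 (-0.50 ± 0.22) and Pfkfb3 (0.79 ± 0.39 SE). In JAK2-VF Ezh2-null against JAK2-VF libraries 0 of 36 were called, against 0.448% of all tested genes, and 1 had an unadjusted p under 0.05, against 7.19% of all tested genes. That gene was Taldo1 (log2 -0.34 ± 0.13 SE, edgeR adjusted p = 0.427). Averaged over both JAK2 genotypes 0 of 36 were called, against 0.401% of all tested genes, and 3 had an unadjusted p under 0.05, against 7.9% of all tested genes. The median log2 change was -0.08 over the 36 genes, of which 27 were negative.

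Pdk1 came closest in that average. It had 47.2, 58.6 and 77.6 CPM as lowest, median and highest value in JAK2-VF Ezh2-null libraries, against 52.0, 76.2 and 104 CPM in JAK2-VF libraries. It had 32.6, 49.3, 50.2 and 61.3 CPM in Ezh2-null libraries, against 53.0, 68.1, 87.3 and 93.7 CPM in controls. Both pairs overlapped. Its averaged log2 change was -0.50 ± 0.15 (SE, edgeR adjusted p = 0.211). Of the 13 genes called with JAK2-VF none passed for Ezh2 loss, and their averaged log2 changes ran from -0.31 ± 0.10 for Taldo1 to 0.32 ± 0.30 for Eno2 (SE). Taldo1 was among the 3 genes with an unadjusted p under 0.05 (edgeR adjusted p = 0.285). The averaged log2 changes were 0.07 ± 0.12 for Tkt, 0.00 ± 0.09 for Pdk3, -0.02 ± 0.07 for Eno1 and -0.07 ± 0.15 for Hk2 (SE).

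**Figure D5:**
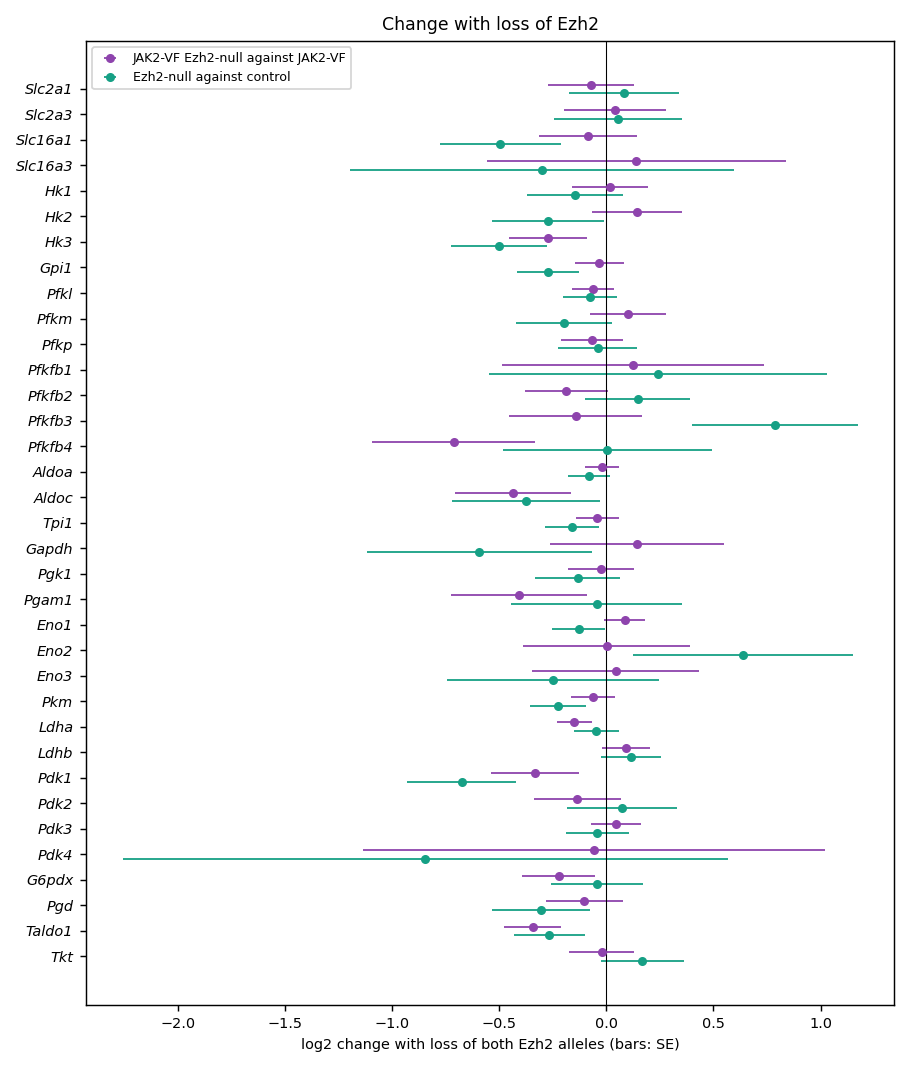
Log2 change with loss of both Ezh2 alleles (points, with SE) for 35 of the genes, in JAK2-VF Ezh2-null against JAK2-VF libraries and in Ezh2-null against control libraries; Pklr is left out. No gene passed the threshold in either comparison, and Tkt, Pdk3 and Eno1 lie between -0.13 and 0.17.

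Loss of 1 Ezh2 allele gave 0 of 36 calls in JAK2-VF Ezh2-het against JAK2-VF libraries and 0 of 36 in Ezh2-het against control libraries, with 0% of all tested genes called in each. At an unadjusted p under 0.05 there were 3 genes in the first (G6pdx, Hk2 and Pfkfb4), against 3.85% of all tested genes, and 1, Eno2, in the second, against 5.23%. The test of whether Ezh2 loss acted differently with JAK2-VF called 0 of 36 genes, against 0.00669% of all tested genes, and 0 had an unadjusted p under 0.05, against 5.43% of all tested genes. The median SE of that difference was 0.32 on the log2 scale, so differences of moderate size may not have been detectable.

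Males and females were compared because Pgk1, G6pdx, Pdk3 and Pfkfb1 lie on the X chromosome. None of the 36 genes was called by edgeR, against 0.0468% of all tested genes. The male minus female log2 difference was 0.02 ± 0.10 for Pgk1, 0.02 ± 0.11 for G6pdx, 0.01 ± 0.08 for Pdk3 and -0.17 ± 0.46 for Pfkfb1 (SE). At an unadjusted p under 0.05 there were 5 genes, against 8.24% of all tested genes, all higher in males and named after their values were seen: Hk3 (0.32), Pfkm (0.28), Gpi1 (0.20), Pkm (0.17) and Ldhb (0.16).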

How the data were processed

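The authors deposited raw counts per Entrez gene, 1 table for each library, with a gene length beside each count per the file headers. Per the labels' protocols, RNA came from 1000 sorted cells per library and entered a SMARTer low-input preparation. STAR and build mm9 are named in the submitters' processing notes. The sources used here state neither a counting tool nor whether strand was used, so overlapping or antisense genes cannot be told apart. Symbols came from RefSeq and matched 19075 of 19138 genes. The entry for a part of Ezh2, at most 0.000935% of a library's counts, entered neither library sizes nor tests.

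Counts of all 35 libraries were fitted in edgeR 4.0.16 (R 4.3.3, quasi-likelihood test) on group, sex and batch, with TMM factors of 0.937 to 1.062 and the default low-count filter, which left 14945 genes and removed 4193. There were 27 residual degrees of freedom. The script was tested on simulated data. A call means a p under 0.05 after Benjamini-Hochberg adjustment over all tested genes. Levels are TMM-normalised CPM. No value has an interval for counting error, since replicates give the spread.

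The 36 genes and the other lists were chosen with earlier results of these data known. All called genes of the 36 are named, and of the other lists up to 3 called genes with the smallest adjusted p. One gene that this rule names is not reported here. Copies were sought as exact 50-base windows in GENCODE M21 transcripts. Alternatives were size factors and the Wald test of DESeq2 1.42.0, limma-voom (limma 3.58.1) with quality weights, no low-count filter, no sex term, the replicate number as a block, only the groups compared, single batches, females only, and each library left out in turn. A fit without the 2 libraries that went against their labels and a robust estimate of the spread were added after seeing the data.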

Additional observations from a re-analysis of the deposited data

Results flagged for a closer look

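A single library lay apart from the rest of its group by Dixon's gap test in 16 of 216 sets of 1 gene in 1 group; chance flags about 1 in 20. High among the JAK2-VF Ezh2-null libraries were Slc16a1 in batch 1 replicate 2 (87.8 CPM, others up to 49.9) and Pklr in batch 2 replicate 2 (0.258 CPM, others up to 0.0388). High among the JAK2-VF Ezh2-het libraries were Hk2 in batch 1 replicate 3 (191 CPM, others up to 120.2) and Pgd in batch 2 replicate 5 (263 CPM, others up to 153). Among JAK2-VF libraries, batch 2 replicate 4 was high in Slc16a3 (16 CPM, others up to 8.19) and Pklr (0.431 CPM, others up to 0.0492). In the same group Pdk4 was high in batch 1 replicate 1 (10.8 CPM, others up to 3.03) and Tkt low in batch 2 replicate 1 (777 CPM, others from 956).

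Without JAK2-VF, Slc2a3 was high in Ezh2-null batch 2 replicate 2 (434 CPM, others up to 211). Ezh2-het batch 1 replicate 1, labelled male with Xist counts, was high in Pdk1 (128 CPM, others up to 82.2) and Pklr (0.840 CPM, others up to 0.295), and Ezh2-het batch 2 replicate 3 in Eno2 (56.4 CPM, others up to 29.3). Control batch 1 replicate 2 was low in Slc2a1 (35.3 CPM, others from 75.1) and high in Pdk4 (14.6 CPM, others up to 5.33). Pfkfb3 was high in control batch 2 replicate 4 (68.9 CPM, others up to 27.1) and Pklr in control batch 1 replicate 1 (1.14 CPM, others up to 0.0441).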

How the results depend on the processing

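No called change of a gene reversed in any alternative, and with DESeq2 size factors the same genes were called in every comparison. All alternatives reuse the libraries that gave the calls, so they are no independent check. The median log2 change over the 36 genes, which is no test, crossed 0 in 3 comparisons. It was 0.08 for JAK2-VF against control, and -0.02 with the compared groups only, -0.04 in batch 1 alone and -0.00 to 0.15 when 1 library was left out. It was 0.03 in the Ezh2-het pair, and -0.01 with the compared groups only, -0.04 in batch 1 alone and -0.02 to 0.07 when 1 library was left out. For the interaction it was 0.04, and -0.02 with no sex term, -0.05 in batch 2 alone and -0.02 to 0.10 when 1 library was left out. For JAK2-VF averaged over the Ezh2 genotypes, 13 genes were called, and 2 in batch 1 alone, 7 in batch 2 alone, 5 in females alone and 11 to 14 when 1 library was left out. For JAK2-VF against control, with 3 calls, there was 1 with the compared groups only, 0 in batch 1 alone, 0 in batch 2 alone, 1 in females alone and 1 to 4 when 1 library was left out. The Ezh2-het pair, with 6 calls, had 1 in batch 1 alone, 2 in batch 2 alone, 0 in females alone, 3 without the 2 libraries that went against their labels and 4 to 7 when 1 library was left out. The Ezh2-null pair, with 2 calls, had 4 with the DESeq2 Wald test, 4 with no sex term (Tkt and Pfkfb2 added in both), 0 with the compared groups only, 0 in batch 1 alone, 0 in batch 2 alone, 0 in females alone and 2 to 3 when 1 library was left out. The batch, sex and group fits hold fewer libraries. For these alternatives, and for the replicate block below, the share of all tested genes called is not given here. A lower or higher count can therefore not be read as particular to the 36 genes.

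Same-numbered libraries did not deviate together: 69 pairs had correlations of -0.177 to 0.0772, none over 0.1, after group, batch and sex were removed. This gave no sign that the numbers pair the samples but cannot exclude it. With the replicate block, 12 genes were called on average, 4 in JAK2-VF against control, 6 in the Ezh2-het pair and 2 in the Ezh2-null pair, and 1 gene, Pdk1, for Ezh2 loss averaged, where none was called without it.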
